A study of Mus musculus with 4 samples.

Results

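The replication-dependent histone genes supply the proteins that package newly made DNA. They were taken as every gene of the deposited table whose symbol begins with Hist1h, Hist2h, Hist3h or Hist4h, and 64 of 13976 genes met that rule. There were 5 genes of the linker histone H1, 17 of H2A, 18 of H2B, 11 of H3 and 13 of H4. On mouse assembly GRCm38, 51 of the 64 genes lie on chromosome 13 (the Hist1 cluster), 9 on chromosome 3 (Hist2), 3 on chromosome 11 (Hist3) and 1 on chromosome 6 (Hist4h4). Hist3h2bb-ps is annotated as a pseudogene. A further 6 annotated symbols that match the rule were not analysed here.

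Bulk RNA sequencing covered 4 myeloid populations sorted out of tumours of EO771, a breast cancer cell line of the mouse. They were dendritic cells with intermediate CD103 and with CD11b (CD103int DC), CD103+ conventional dendritic cells of type 1 (cDC1), CD11b+ conventional dendritic cells of type 2 (cDC2) and macrophages, with 1 library each. The labels give no mouse strain, age, number of animals or sort gates, and they do not say whether the mice had received the heterodimeric interleukin-15 (hetIL-15) of the study's title. All values are CPM, counts per 1000000 reads on scaled library sizes.

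Nucleosomes hold pairs of H2A, H2B, H3 and H4, and H1 binds the linker DNA between them. Cells transcribe these genes mainly in S phase, when DNA is copied, so their mRNA is a common sign of proliferating cells. Their S phase mRNAs are typically not polyadenylated in the usual way: they end just after a short stem-loop, which the stem-loop binding protein (Slbp) recognises. Replacement histones, by contrast, mostly come from polyadenylated mRNAs made throughout the cell cycle, though not every one does.

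That stem-loop sets the H4 genes apart from the other types in sequence, and 1 or 2 examples per type are shown here because H4 also stood apart in level. Sequences are from the GENCODE M21 transcripts on GRCm38 and are written 5′ to 3′ as DNA, with the paired stem in capitals. Each lies in the 3′ untranslated region of a gene at the place given.
Hist1h1c (H1, chr13:23738808-23740367, plus strand): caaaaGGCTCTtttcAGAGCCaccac
Hist2h2aa1 (H2A, chr3:96245497-96246082, plus strand): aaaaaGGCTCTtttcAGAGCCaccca
Hist1h2bk (H2B, chr13:22035870-22036345, plus strand): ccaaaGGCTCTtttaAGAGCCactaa
Hist1h3b (H3, chr13:23752267-23752886, plus strand): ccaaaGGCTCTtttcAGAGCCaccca
Hist1h4d (H4, chr13:23581598-23582735, plus strand): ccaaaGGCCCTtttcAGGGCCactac
Hist1h4b (H4, chr13:23757013-23757409, plus strand): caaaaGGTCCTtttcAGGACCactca

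The search used 3 letter patterns on the sense strand of annotated transcripts, in which each stem is 6 bases long and the loop 4 bases. The patterns do not overlap one another, and 44 of the 64 genes held one. In 22 of these the annotated transcript ended within 60 bases after the stem-loop, and in 22 more than 60 bases after it. GGCTCTNNNNAGAGCC occurred in 32 histone genes (3 H1, 11 H2A, 10 H2B, 8 H3 and 0 H4) and in 83 of 55450 annotated genes, or 0.150%. GGCCCTNNNNAGGGCC occurred in 10 H4 genes and no other histone gene of the table, against 0.0523% of annotated genes. GGTCCTNNNNAGGACC occurred in 2 H4 genes, against 0.0289% of annotated genes. The stem began between 21 and 58 bases after the stop codon. The other 20 histone genes had no such pattern in their annotated transcript, which says only that these letters are not in that model.

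Histone mRNA was most abundant in the CD103int DC and cDC1 libraries. The 64 genes summed to 3145 CPM in CD103int DC, 2949 CPM in cDC1, 1726 CPM in cDC2 and 1650 CPM in macrophages. These sums were 0.323%, 0.326%, 0.178% and 0.141% of their columns in the same order. Of the 64 genes, 48 had their highest level in CD103int DC, 15 in cDC1, 0 in cDC2 and 1 in macrophages. In bulk RNA, fewer cells that make histone mRNA and less histone mRNA per cell cannot be told apart.

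With 1 library per population there is no test and no replicate error. Intervals in parentheses are exact 95% intervals that cover counting error only, from between 80054 and 180589 estimated histone reads per library. A gene was called 2-fold apart where it differed by at least 1 on log2(CPM + 1), and the share of all 13976 genes past the same line is given as background. The total depth was 44425900 to 63817500 estimated reads per library, and 10 CPM stood for 464 to 574 estimated reads. Of the histone genes, 53 had a mean of at least 10 CPM and 11 were below it.

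The sorted labels were checked on marker genes. Xcr1, a chemokine receptor that marks cDC1, was at 9.13 CPM in CD103int DC, 130 CPM in cDC1, 1.72 CPM in cDC2 and 8.28 CPM in macrophages. Csf1r, the receptor for macrophage colony-stimulating factor, was at 925, 409, 1096 and 1538 CPM in the same order. Some markers went against the labels: C1qa, a complement gene of macrophages, was at 572 CPM in cDC2 and 105 CPM in macrophages, and Cd209a, a cDC2 lectin, was highest in cDC1 at 257 CPM. In the same order, 5 cDC1 markers summed to 243, 988, 252 and 297 CPM. The 5 cDC2 markers summed to 2483, 1182, 2137 and 2396 CPM, and 5 macrophage markers to 1552, 504, 2300 and 2530 CPM. These sums thus did not clearly separate cDC2 from macrophages. Markers of lymphocytes were low, with sums of 0.906 to 10.8 CPM over 5 T cell genes and 0.853 to 11.7 CPM over 5 natural killer cell genes. Krt8 and Epcam, markers of tumour epithelium, summed to 5.31 CPM in CD103int DC, 9.28 CPM in cDC1, 2.52 CPM in cDC2 and 1.96 CPM in macrophages, and so were higher in the same 2 libraries as the histone genes. Their part in the histone levels was not tested. The fibroblast markers Col1a1 and Col3a1 summed to 8.26, 6.63, 34.4 and 15.2 CPM in the same order. For B cells, neutrophils and erythroid cells 0 marker genes had a row. The macrophage column carries another name prefix than the other 3 columns, so whatever that prefix stands for cannot be told apart from cell type.

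Against macrophages, 40 of 64 histone genes were at least 2-fold higher in CD103int DC and 0 at least 2-fold lower. The background was 4.67% of all genes higher and 5.98% lower. By any amount 62 of 64 were higher, against 50.8% of all genes. The median difference was 1.31 on log2(CPM + 1) over the histone genes and 0.01 over all genes. Summed, the 64 genes were 1.91-fold higher (1.89 to 1.92). The size of the difference depended on the histone type.

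**Figure D1:**
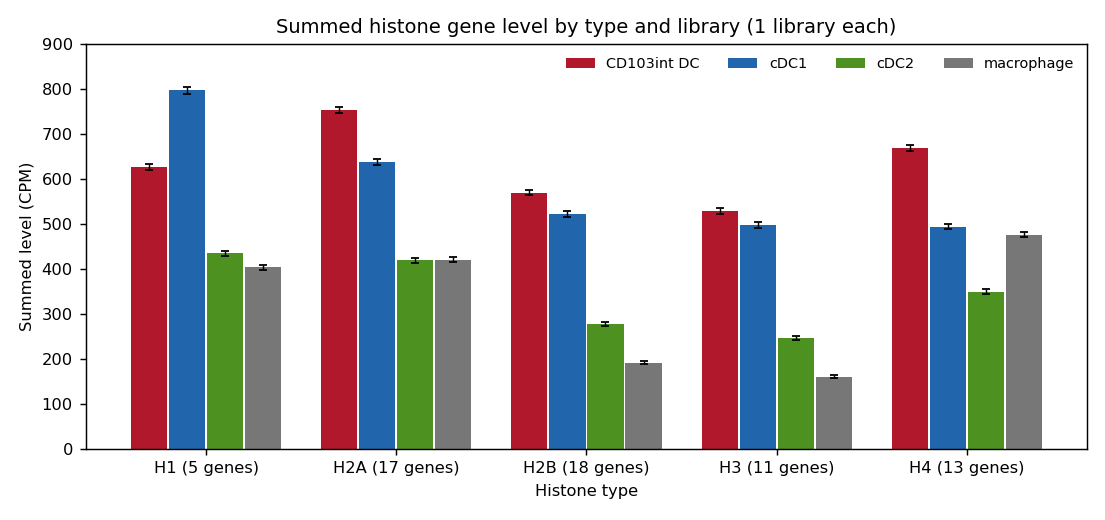
Summed level in CPM (vertical axis, from 0) of the genes of each histone type (horizontal axis) in the 4 libraries, with exact 95% counting intervals as error bars. H3 reached 529 CPM in CD103int DC and 160 CPM in macrophages, whereas H4 reached 668 and 476 CPM.

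Histone H3, the core histone whose tail carries many of the known chromatin marks, showed the widest gap. Its 11 genes summed to 529 CPM in CD103int DC, 498 CPM in cDC1, 245 CPM in cDC2 and 160 CPM in macrophages. The CD103int DC sum was 3.31-fold the macrophage sum (3.23 to 3.39), and 11 of 11 genes were at least 2-fold higher (background 4.67%). Against cDC2 the sum was 2.15-fold higher (2.11 to 2.20), with 6 of 11 genes past 2-fold (background 1.77% of all genes). Against cDC1 it was 1.06-fold (1.04 to 1.08), with 0 of 11 (background 9.32%).

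Hist1h3e was at 69.2 CPM in CD103int DC, 72.8 CPM in cDC1, 41.7 CPM in cDC2 and 30.4 CPM in macrophages. Hist1h3c was at 72.8, 65.2, 24.8 and 14.1 CPM in the same order, a 5.16-fold difference between CD103int DC and macrophages (4.77 to 5.57). Hist2h3b, from the smaller cluster on chromosome 3, was at 66.4, 62.5, 39.5 and 27.4 CPM. These genes shared one order, with both CD103int DC and cDC1 above cDC2 and cDC2 above macrophages. Hist1h3b (57.2, 51.2, 21.3 and 11.6 CPM) and Hist2h3c2 (64.3, 62.9, 25.5 and 13.9 CPM) followed it too, as did Hist1h3h (30.2, 33.8, 10.7 and 6.43 CPM).

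Hist1h3g had the largest difference from macrophages of any histone gene, 2.90 on log2(CPM + 1). It was at 15.4 CPM in CD103int DC, 11.6 CPM in cDC1, 4.51 CPM in cDC2 and 1.21 CPM in macrophages. Its mean was under 10 CPM, and it is named because its values were seen. Within H3 the smallest of the 11 differences was still 1.16, so the genes varied in size of difference but not in direction.

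Histone H2B, which pairs with H2A in the nucleosome, came next. Its 18 genes summed to 569 CPM in CD103int DC, 522 CPM in cDC1, 277 CPM in cDC2 and 191 CPM in macrophages. The sum was 2.98-fold higher in CD103int DC than in macrophages (2.91 to 3.04), with 13 of 18 genes past 2-fold (background 4.67%). Against cDC2 it was 2.05-fold higher (2.01 to 2.10), with 10 of 18 (background 1.77%).

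Hist1h2bg was at 114 CPM in CD103int DC, 115 CPM in cDC1, 57.0 CPM in cDC2 and 39.4 CPM in macrophages. Hist1h2bk was at 33.3, 27.2, 11.7 and 4.93 CPM, a 6.74-fold difference between CD103int DC and macrophages (5.93 to 7.69). Hist1h2bb was at 52.1, 42.2, 18.9 and 14.0 CPM, and Hist1h2bq at 60.8, 53.2, 31.4 and 16.3 CPM. In all 4 genes both CD103int DC and cDC1 were above cDC2, and macrophages were lowest.

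Hist1h2be kept that order with smaller differences. It was at 60.2 CPM in CD103int DC, 44.7 CPM in cDC1, 35.8 CPM in cDC2 and 33.8 CPM in macrophages, a difference of 1.78-fold between CD103int DC and macrophages (1.68 to 1.89). Its gene model overlaps that of Hist1h1e on the same strand, so their reads are uncertain. Hist2h2be departed from the order. Named because its values were seen, it was at 6.39, 9.21, 7.95 and 3.88 CPM and was the only histone gene lower in CD103int DC than in cDC2 (0.804-fold, 0.694 to 0.931).

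H2A divided by gene cluster. The 12 H2A genes of the Hist1 cluster summed to 395 CPM in CD103int DC, 369 CPM in cDC1, 173 CPM in cDC2 and 101 CPM in macrophages. Of these, 12 of 12 were at least 2-fold higher in CD103int DC than in macrophages (background 4.67%). The 4 Hist2 genes summed to 260, 191, 167 and 227 CPM, with 0 of 4 past 2-fold. Among them Hist2h2ab was near the floor, at 0.819, 1.43, 0.776 and 1.17 CPM, where a 2-fold difference on log2(CPM + 1) is hard to reach. Hist3h2a was at 98.1, 78.3, 79.7 and 90.9 CPM. The fold of CD103int DC over macrophages was therefore 3.90 for Hist1, 1.14 for Hist2 and 1.08 for Hist3h2a. The division by cluster was drawn after the values were seen.

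Hist1h2ap, of the Hist1 cluster, was at 108 CPM in CD103int DC, 106 CPM in cDC1, 49.2 CPM in cDC2 and 28.6 CPM in macrophages. Hist1h2ab was at 64.8, 75.8, 24.5 and 11.5 CPM, 5.63-fold higher in CD103int DC than in macrophages (5.17 to 6.14). Hist2h2aa1 was at 144, 99.3, 86.0 and 123 CPM, 1.17-fold higher in CD103int DC (1.13 to 1.21). Macrophages thus had the lowest levels of Hist1h2ap and Hist1h2ab but more Hist2h2aa1 than cDC1 or cDC2. Hist2h2aa1 and Hist2h2aa2 translate to the same protein and share most of their sequence, so their single values are uncertain. Hist3h2a overlaps Trim17 on the same strand.

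Many histone genes are neighbours transcribed away from each other, and 13 such divergent pairs were found among the 64 genes, 12 of an H2A with an H2B gene and 1 of an H2B with an H3 gene. Hist1h2ah and Hist1h2bk, 301 bases apart, were 3.38-fold and 6.74-fold higher in CD103int DC than in macrophages. Hist1h2ae and Hist1h2bg, 175 bases apart, were 3.69-fold and 2.90-fold higher. The pair Hist2h2ac and Hist2h2be, 238 bases apart, differed in direction against cDC2, at 1.53-fold and 0.804-fold.

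**Figure D2:**
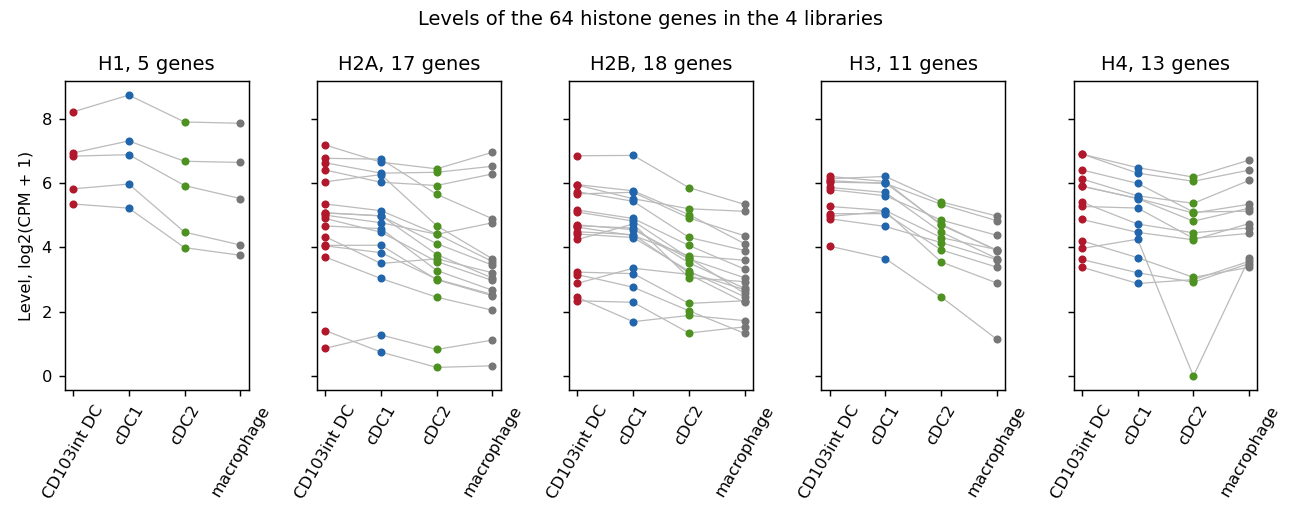
Level of each histone gene on log2(CPM + 1) (vertical axis) in the 4 libraries (horizontal axis), 1 panel per type, with grey lines joining the same gene. H3 genes are lowest together in macrophages, H2A genes divide into a group that is lowest in macrophages and a flatter group, and the H4 genes are lower in cDC2 than in macrophages. The point at 0 is Hist1h4m in cDC2.

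Histone H4 differed from H3, its partner in the nucleosome core. The 13 H4 genes summed to 668 CPM in CD103int DC, 494 CPM in cDC1, 349 CPM in cDC2 and 476 CPM in macrophages. The CD103int DC sum was 1.40-fold the macrophage sum (1.38 to 1.43), and 1 of 13 genes was at least 2-fold higher (background 4.67%). That gene was Hist1h4f, named after its values were seen (83.9, 62.5, 33.3 and 33.9 CPM). Against cDC2 the sum was 1.91-fold higher (1.88 to 1.95), with 4 of 13 genes past 2-fold (background 1.77%). H4 made up 21.2% of all histone CPM in CD103int DC, 16.7% in cDC1, 20.2% in cDC2 and 28.8% in macrophages, whereas H3 made up 16.8%, 16.9%, 14.2% and 9.69%.

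Hist1h4d was at 118 CPM in CD103int DC, 88.2 CPM in cDC1, 71.8 CPM in cDC2 and 104 CPM in macrophages. Hist1h4n was at 119, 78.2, 65.5 and 83.6 CPM, and Hist1h4c at 68.9, 47.6, 40.4 and 66.8 CPM. Macrophages therefore exceeded both cDC1 and cDC2 for these genes, and for Hist1h4c they came within 1.03-fold of CD103int DC (0.986 to 1.08). Hist1h4b was at 41.4, 25.5, 20.9 and 23.3 CPM, and Hist1h4j at 17.5, 11.8, 7.40 and 9.41 CPM. Hist4h4, named because its values were seen, was the 1 histone gene highest in macrophages (9.44, 6.36, 6.98 and 10.8 CPM).

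Hist1h4m was at 14.6 CPM in CD103int DC and 18.1 CPM in cDC1, was listed at 0 in cDC2 and was at 11.6 CPM in macrophages. All 13 H4 coding sequences translate to the same protein, and 89.8% of the 50-base words of Hist1h4m occur in another gene. Near-identical copies are common in the family: the coding sequences of the 64 genes give 27 different proteins, and 31 genes share over 50% of their 50-base words with another gene. A gene on the same strand overlaps 6 of them and one on the opposite strand overlaps 20. The listing of Hist1h4m at 0 cannot be told apart from how reads of such copies were assigned. Single values of Hist1h2ap, Hist1h2bk, Hist1h2bq, Hist1h3h and Hist1h4n, which also share over 50%, are uncertain too. Their counting intervals do not cover this uncertainty.

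Of RNAs without a poly(A) tail, those named below were highest in the macrophage library, unlike the histone sum. The labels do not say how ribosomal RNA was removed or whether mRNA was selected. Rn7sk, a regulator of transcription elongation, was at 1741 CPM in CD103int DC, 1379 CPM in cDC1, 2164 CPM in cDC2 and 7239 CPM in macrophages. Rpph1, the RNA of ribonuclease P, was at 1551, 769, 1463 and 4531 CPM. Rn7s1 and Rn7s2, of the signal recognition particle, were at 7250 and 25802 CPM in CD103int DC, 3610 and 10318 CPM in cDC1, 5658 and 19485 CPM in cDC2 and 9324 and 26042 CPM in macrophages. Rmrp, with 2 entries, was at 155 and 61.4 CPM in CD103int DC, 65.9 and 65.1 CPM in cDC1, 191 and 76.8 CPM in cDC2 and 772 and 249.2 CPM in macrophages. All of these named RNAs were highest in macrophages. Of 7 rows of such RNAs, 5 were at least 2-fold lower in CD103int DC than in macrophages and 0 higher. The background was 5.98% and 4.67% of all genes. Against cDC2, 0 of 7 were apart in either direction. Against cDC1, 4 of 7 were higher, beside 9.32% of all genes. Rows with symbols starting Scarna summed to 376, 208, 360 and 1162 CPM in CD103int DC, cDC1, cDC2 and macrophages. Those starting Snora summed to 14.8, 12.5, 22.8 and 48.7 CPM. Those starting Snord were flatter, at 8.29, 9.41, 8.12 and 9.35 CPM, and highest in cDC1. The gene models Gm26917 and Gm42418, taken here to hold ribosomal RNA reads, took 7.08% of the CD103int DC column, 12.5% of cDC1, 5.94% of cDC2 and 11.3% of macrophages. The part of these differences in the histone levels was not tested.

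Linker histone H1 was the one type highest in cDC1. Its 5 genes summed to 626 CPM in CD103int DC, 797 CPM in cDC1, 435 CPM in cDC2 and 403 CPM in macrophages. The CD103int DC sum was 0.785-fold the cDC1 sum (0.774 to 0.797), and 4 of 5 genes were lower, none by 2-fold (background 6.27%). Against macrophages it was 1.55-fold higher (1.53 to 1.58), with 3 of 5 genes past 2-fold (background 4.67%).

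Hist1h1c was at 296 CPM in CD103int DC, 425 CPM in cDC1, 238 CPM in cDC2 and 231 CPM in macrophages. Hist1h1e was at 122, 158, 101 and 98.9 CPM, and Hist1h1d at 113, 117, 59.7 and 44.9 CPM. Hist1h1c and Hist1h1e were 1.28-fold (1.25 to 1.31) and 1.23-fold (1.19 to 1.27) higher in CD103int DC than in macrophages, while Hist1h1d was 2.53-fold higher in CD103int DC than in macrophages (2.41 to 2.65). Hist1h1b and Hist1h1a, named after their values were seen, share 0 of their 50-base words with another gene and were 3.50-fold (3.25 to 3.78) and 3.18-fold (2.92 to 3.47) higher.

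Against cDC2, 31 of 64 histone genes were at least 2-fold higher in CD103int DC and 0 at least 2-fold lower, with backgrounds of 1.77% and 0.894% of all genes. The median was 0.99 on log2(CPM + 1) for the histone genes and 0.00 for all genes, and 63 of 64 were higher by any amount, against 49.3% of all genes. The sum was 1.82-fold higher (1.81 to 1.84). All 5 types shared the direction, from 1.44-fold for H1 to 2.15-fold for H3.

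Against cDC1, 0 of 64 histone genes were 2-fold apart in either direction, although 9.32% of all genes were at least 2-fold higher in CD103int DC and 6.27% lower. By any amount 49 of 64 were higher, against 52.0% of all genes, and the sum differed by 1.07-fold (1.06 to 1.07). H4 was 1.35-fold higher (1.33 to 1.37) and H2A 1.18-fold higher (1.16 to 1.20). Hist1h2ai had the largest difference of the 64 genes, 0.83 on log2(CPM + 1). It was at 19.2 CPM in CD103int DC, 10.3 CPM in cDC1, 11.5 CPM in cDC2 and 8.27 CPM in macrophages. Of its 50-base words 90.1% occur in another gene, so its single value is uncertain. With columns rescaled to equal totals, the direction of the whole sum turned, to -0.01 on the log2 scale.

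The summed histone level was higher in cDC1 than in both of the lower libraries, though not for every type. Against cDC2, 21 of 64 genes were at least 2-fold higher in cDC1 and 0 lower (background 7.46% and 9.85%), and 60 of 64 were higher by any amount, against 48.4% of all genes. The sum was 1.71-fold higher (1.69 to 1.72). Against macrophages, 36 of 64 were higher and 0 lower (background 10.5% and 13.2%), and 54 of 64 were higher by any amount, against 48.9% of all genes. The sum was 1.79-fold higher (1.77 to 1.80). For H4 it was 1.04-fold (1.02 to 1.06), with 0 of 13 genes at least 2-fold higher, and 7 higher and 6 lower by any amount. The H2A sum of the Hist2 genes was 0.840-fold in cDC1 relative to macrophages, and Hist3h2a 0.861-fold. These comparisons of cDC1 share libraries with those of CD103int DC and add no independent evidence.

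The cDC2 and macrophage libraries had nearly the same sum, 1.05-fold apart (1.04 to 1.06), but not the same histones. At least 2-fold apart were 3 of 64 genes higher in cDC2 and 1 lower (background 2.23% and 4.22%), the 1 lower being Hist1h4m. With columns rescaled to equal totals, 12 were at least 2-fold higher in cDC2. By any amount, 11 of 11 H3 genes, 5 of 5 H1 genes and 16 of 18 H2B genes were higher in cDC2, while 13 of 13 H4 genes were lower, beside 51.5% of all genes higher. The H4 sum was 0.733-fold in cDC2 relative to macrophages (0.719 to 0.748). With columns rescaled to equal totals, which shifts the median of all genes by 0.22 on the log2 scale, 3 of the 13 H4 genes turned to higher in cDC2.

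**Figure D3:**
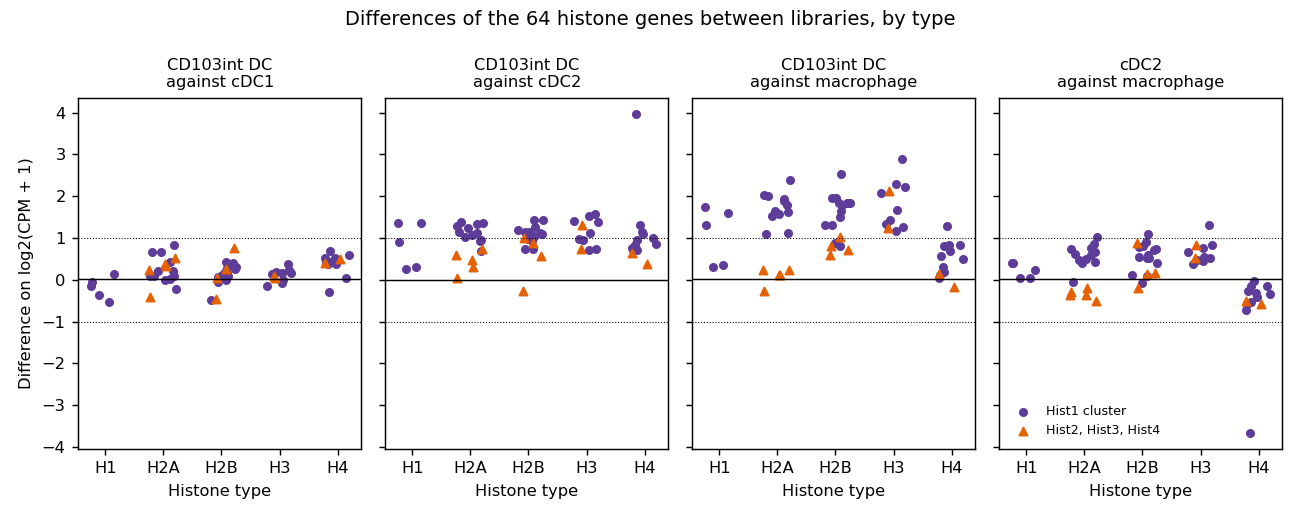
Difference of each histone gene on log2(CPM + 1) (vertical axis) by type (horizontal axis) for 4 comparisons, with circles for the Hist1 cluster and triangles for the others. Dotted lines mark 2-fold and the solid line the median of all genes. In CD103int DC against macrophages the 11 H3 genes lie above 1 whereas 12 of 13 H4 genes lie below it, and Hist1h4m is the outlying point of both comparisons with cDC2.

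Promoter sequences were set beside these differences by type. RefSeq promoters of GRCm38.p6, from 250 bases before the start, could be matched for 57 of the 64 genes. Letters were searched on both strands. CCAAT was present in 47 of 57, in all matched H1, H2A and H2B genes (5, 16 and 15) and in 8 of 9 H3 genes but 3 of 12 H4 genes, against 33.8% of 32851 promoters. ATTTGCAT, the letters of the octamer known from H2B promoters, was present in 6 of 15 H2B and 6 of 16 H2A genes and in 0 of the H1, H3 and H4 genes, against 1.60% of promoters. TATAAA was present in 27 of 57, against 12.4%. Partners of the divergent H2A and H2B pairs lie 172 to 301 bases apart, so their 250-base windows can overlap. The same stretch can then count for both genes, so some of these counts are not of separate promoters. Matches of this kind are descriptions and not binding sites.

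The promoters of 4 genes are shown, as an H3, an H2B, an H1 and an H4 gene with different sizes of difference from macrophages. Each is on the strand given, 5′ to 3′, ending at the annotated start, with CCAAT, ATTTGCAT and TATAAA on either strand in capitals.
Hist1h3g (chr13:23535168-23535417, plus strand): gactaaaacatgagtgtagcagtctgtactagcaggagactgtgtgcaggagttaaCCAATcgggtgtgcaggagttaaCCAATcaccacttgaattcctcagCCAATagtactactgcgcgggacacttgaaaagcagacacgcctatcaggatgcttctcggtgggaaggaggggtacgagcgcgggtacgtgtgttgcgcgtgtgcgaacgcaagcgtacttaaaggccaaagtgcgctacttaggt
Hist1h2bk (chr13:22035571-22035820, plus strand): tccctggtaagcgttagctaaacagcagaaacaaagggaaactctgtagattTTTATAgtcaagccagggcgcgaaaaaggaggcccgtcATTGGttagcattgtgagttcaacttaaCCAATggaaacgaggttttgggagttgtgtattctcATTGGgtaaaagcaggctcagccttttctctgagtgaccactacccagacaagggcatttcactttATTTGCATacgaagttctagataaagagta
Hist1h1c (chr13:23738557-23738806, plus strand): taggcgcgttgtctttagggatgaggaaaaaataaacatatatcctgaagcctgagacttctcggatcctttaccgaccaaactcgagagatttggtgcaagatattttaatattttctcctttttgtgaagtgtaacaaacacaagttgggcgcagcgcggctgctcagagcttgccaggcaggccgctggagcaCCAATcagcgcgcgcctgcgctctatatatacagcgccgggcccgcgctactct
Hist1h4n (chr13:21832198-21832447, minus strand): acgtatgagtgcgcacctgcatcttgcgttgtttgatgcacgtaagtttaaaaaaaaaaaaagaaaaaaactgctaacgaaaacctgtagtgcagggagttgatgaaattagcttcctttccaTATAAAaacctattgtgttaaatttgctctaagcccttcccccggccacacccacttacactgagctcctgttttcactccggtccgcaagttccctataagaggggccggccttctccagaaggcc

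Hist1h3g, Hist1h2bk and Hist1h1c hold CCAAT, Hist1h2bk also holds ATTTGCAT and TATAAA, and Hist1h4n holds TATAAA but not CCAAT. In CD103int DC against macrophages, 34 of the 47 genes with CCAAT were at least 2-fold higher (background 4.67% of all genes). Of the 10 matched genes without it, 2 were at least 2-fold higher. Some of the 47 are divergent partners with overlapping windows. The group without CCAAT is mostly H4, so type and these letters largely overlap. The 3 H4 genes with CCAAT were 1.63-fold (Hist1h4a), 1.03-fold (Hist1h4c) and 1.14-fold (Hist1h4d) higher in CD103int DC than in macrophages. Hist2h3c2, the H3 gene without CCAAT, was 4.63-fold higher. The part of these letters in the levels was not tested.

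Genes of the cell cycle were also mostly higher in CD103int DC than in cDC2 or macrophages. Of 35 genes of S phase and DNA replication, 20 were at least 2-fold higher in CD103int DC than in macrophages and 1 was lower, with a median of 1.26 on log2(CPM + 1). Of 19 genes of G2 and mitosis, 18 were higher and 0 lower, with a median of 1.78. The background was 4.67% of all genes higher and 5.98% lower. Against cDC2 the counts of higher genes were 5 of 35 and 14 of 19, with a background of 1.77%. The medians were 0.58 and 1.20, beside the 0.99 of the histone genes. Against cDC1, 0 of 35 S phase genes were higher and 2 lower, with a median of -0.09. Of 19 genes of G2 and mitosis, 1 was higher and 0 lower, with a median of -0.01. The background was 9.32% of all genes higher and 6.27% lower, so these counts did not exceed it. The 2 lower S phase genes were Cdc6 and Dut. Cdc6, a loader of the replicative helicase, was at 11.1 CPM in CD103int DC and 23.5 CPM in cDC1. Dut, which removes dUTP, was at 9.02 CPM in CD103int DC and 22.7 CPM in cDC1.

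Pcna, the sliding clamp of DNA polymerase, was at 165 CPM in CD103int DC, 165 CPM in cDC1, 150 CPM in cDC2 and 123 CPM in macrophages. The helicase subunit genes Mcm3 (95.5, 108, 62.7 and 31.8 CPM) and Mcm6 (72.1, 101, 50.4 and 26.6 CPM) had both CD103int DC and cDC1 above cDC2, with macrophages lowest. Mcm2, Mcm5, Mcm7, Rrm1, Lig1, Pola1, Pole, Pold1 and Prim2 were also at least 2-fold higher in CD103int DC than in macrophages, by 1.10 (Pold1) to 2.13 (Pole) on log2(CPM + 1). Uhrf1, which carries DNA methylation through replication, was at 65.8 CPM in CD103int DC, 85.1 CPM in cDC1, 31.7 CPM in cDC2 and 14.3 CPM in macrophages. Rrm2, a subunit of the enzyme that makes deoxyribonucleotides, was at 23.4, 35.5, 9.57 and 5.50 CPM. Top2a, the topoisomerase that untangles chromosomes before division, was at 86.3, 113, 34.6 and 22.9 CPM. In Uhrf1, Rrm2 and Top2a, cDC1 was higher than CD103int DC. Mki67, the gene of the proliferation marker Ki-67, was at 95.8, 42.7, 25.1 and 32.3 CPM, highest in CD103int DC. Bub1b, of the spindle checkpoint, was at 37.3, 26.9, 26.5 and 14.9 CPM. Kif11, Aurkb, Tpx2, Ccna2 and Ccnb2 were also higher in CD103int DC than in macrophages, by 1.26 (Tpx2) to 2.01 (Ccnb2) on log2(CPM + 1).

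Among the factors that transcribe histone genes and end their mRNAs, 0 of the 11 measured were 2-fold apart between CD103int DC and any other library. The background was 0.894% to 9.32% of all genes by pair and direction. In cDC1, 1 was at least 2-fold higher than in cDC2 and 2 than in macrophages (background 7.46% and 10.5%). These were Cstf2, a cleavage factor (52.2 CPM in cDC1, 24.9 CPM in cDC2 and 22.9 CPM in macrophages), and against macrophages also Lsm11 of the U7 particle (9.05 CPM in cDC1 and 3.35 CPM in macrophages), both named after their values were seen. Slbp, the stem-loop binding protein, was at 35.1 CPM in CD103int DC, 31.3 CPM in cDC1, 30.5 CPM in cDC2 and 40.9 CPM in macrophages. Sympk, symplekin of the cleavage complex, was at 113, 101, 99.7 and 103 CPM. Srrt was at 69.4, 81.4, 65.4 and 74.3 CPM and Cpsf3, the nuclease that cuts the mRNA, at 72.9, 67.6, 71.7 and 56.8 CPM. Npat, a coactivator of histone transcription, was at 11.0, 19.0, 12.8 and 15.9 CPM.

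Of 14 histone chaperones and acetylation factors, 3 were at least 2-fold higher in CD103int DC than in macrophages and 1 lower (background 4.67% and 5.98%). Apart from cDC2 were 0 (background 1.77% and 0.894%). Chaf1a, the large subunit of chromatin assembly factor 1, was at 21.2 CPM in CD103int DC, 22.0 CPM in cDC1, 11.1 CPM in cDC2 and 5.74 CPM in macrophages. Daxx, which deposits the replacement histone H3.3 with Atrx, was at 81.5, 77.7, 100 and 296 CPM. Rbbp4 was at 130, 139, 122 and 123 CPM, and Supt16, of the FACT complex, at 129, 166, 104 and 112 CPM.

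Between CD103int DC and cDC2 or macrophages, replacement histones were mostly within 2-fold. Of 10 measured, 1 was at least 2-fold higher in CD103int DC than in macrophages and 1 lower (background 4.67% and 5.98%). Apart from cDC2 were 0 (background 1.77% and 0.894%). H3f3b, a gene of H3.3, was the 1 lower, at 522 CPM in CD103int DC, 457 CPM in cDC1, 612 CPM in cDC2 and 1427 CPM in macrophages. H2afx, the variant that is phosphorylated at DNA breaks, was the 1 higher, at 46.9, 42.2, 23.1 and 19.2 CPM. H3f3a, the other H3.3 gene, was at 442, 405, 442 and 590 CPM. H2afz, the variant H2A.Z, was at 331, 234, 221 and 237 CPM.

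**Figure D4:**
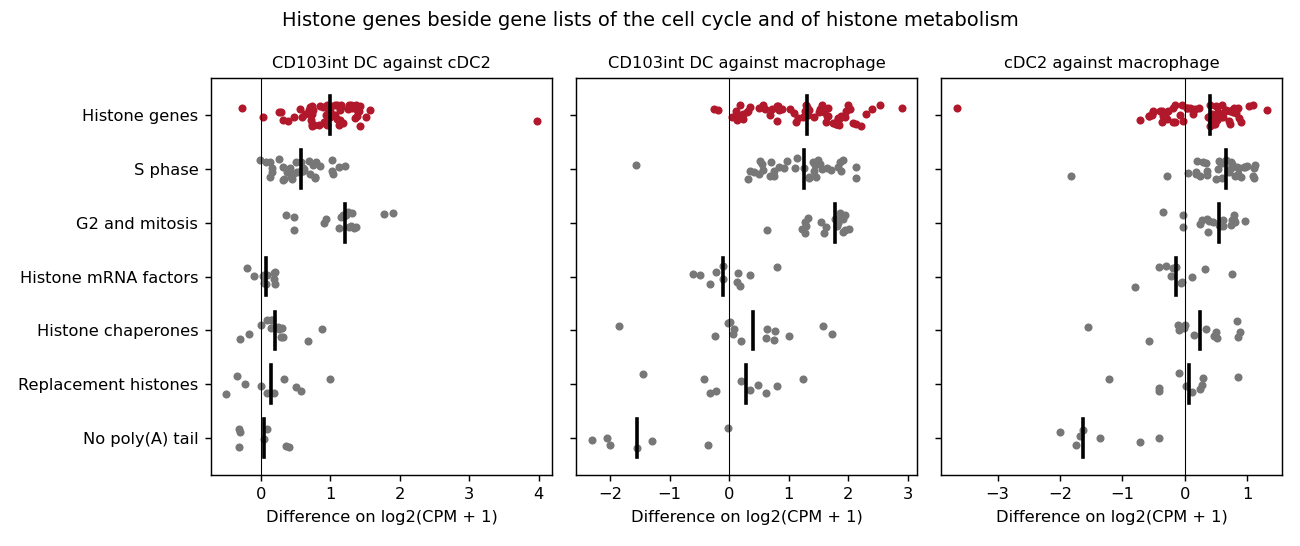
Differences on log2(CPM + 1) (horizontal axis) of the histone genes and of 6 gene lists (vertical axis) for 3 comparisons, with a point per gene and a black bar at the median. The histone median lies between the S phase and the G2 and mitosis medians against both cDC2 and macrophages, and RNAs without a poly(A) tail lie to the left against macrophages.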

How the data were processed

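The authors deposited 1 table of 13976 genes with 1 column per population. The authors had made them an expression signal before deposit: by the name of their table, CPM (counts per 1000000 reads) with TMM-adjusted library sizes (trimmed means of M values), for genes that passed a filter of unstated rule. Which aligner, counter, strand option and genome build they used is not given in the sources used here. The labels' protocols name an RNeasy column, DNase I and a directional NEBNext library kit. The smallest step of each column, 0.0174 to 0.0216 CPM, was taken as 1 read. Between 70.6% and 79.0% of values were whole multiples of it (tolerance 0.001), so the values are estimated counts. They gave exact Poisson intervals for levels and exact Clopper-Pearson intervals for ratios at the 95% level, covering counting error only.

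Identifiers and symbols of all 13976 genes matched GENCODE M21. Values were compared on log2(CPM + 1) with Python 3.11.15, pandas 2.3.3, numpy 2.4.6 and scipy 1.17.1, and no test was run because each population had 1 library. The computation was tested on simulated data. Proteins were translated from GENCODE coding sequences. The members and lists were chosen with earlier results of these data known. Genes named were the 3 with the highest mean of each type, the 5 with a mean of at least 10 CPM farthest from each other library, those listed at 0, and in each list the 3 highest and those at least 2-fold apart; others are said to be named after their values were seen, and Slbp and Npat were added likewise. The values of 1 gene of the S phase list are not reported here.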

Additional observations from a re-analysis of the deposited data

How the results depend on the processing

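The comparisons were recomputed with 2 other scalings of the columns, other sets of summed genes, another pseudocount, a minimum mean of 10 CPM and a 4-fold line. Of the recomputed values, 105 stayed as reported, 47 moved by more than counting error (or a count by over 1.5 times) and 4 turned direction. The cause was not tested except where the setting itself changes what is counted.

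Rescaling to equal totals, which shifts the median of all genes by 0.21 on the log2 scale for CD103int DC against macrophages and by 0.31 for cDC1 against macrophages, turned the sum of CD103int DC against cDC1 to -0.013 (log2 ratios here and below) and its H3 sum to -0.020, and turned the H2A sum of cDC2 against macrophages to 0.27. The whole sums became 1.19 for CD103int DC against macrophages, 0.87 for cDC1 against cDC2, 1.21 for cDC1 against macrophages and 0.34 for cDC2 against macrophages. By type, CD103int DC against cDC1 became -0.45 (H1), 0.13 (H2A), 0.021 (H2B) and 0.33 (H4). CD103int DC against macrophages became 0.90 (H1), 1.11 (H2A), 1.84 (H2B), 1.99 (H3) and 0.75 (H4). cDC2 against macrophages became 0.38 (H1), 0.81 (H2B), 0.89 (H3) and -0.18 (H4), and its count of genes at least 2-fold higher became 12. With median-of-ratios scaling the sums were 0.91 for CD103int DC and 0.045 for cDC2 against macrophages.

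Without the histone gene of the highest mean, Hist1h1c, the sums of CD103int DC were 0.17 against cDC1, 0.94 against cDC2 and 1.01 against macrophages. Without the highest gene of each type, CD103int DC against cDC1 gave -0.17 (H1), 0.18 (H2A), 0.16 (H2B) and 0.11 (H3). Against cDC2 it gave 0.74 (H1), 1.17 (H3) and 0.99 (H4), and against macrophages 0.94 (H1), 1.04 (H2A), 1.83 (H3) and 0.56 (H4). cDC2 against macrophages gave 0.20 for H1, and its H2A sum turned to 0.17.

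With a pseudocount of 0.1, 1 gene was at least 2-fold higher in CD103int DC than in cDC1. At the 4-fold line the counts of higher genes were 1 for CD103int DC against cDC2, 8 against macrophages, 1 for cDC1 against cDC2, 7 against macrophages and 0 for cDC2 against macrophages. With genes of the same protein summed to 27 entries, a setting added after the data were seen, they were 13 and 16 for CD103int DC, 12 and 16 for cDC1 and 1 for cDC2, and 0 were lower in cDC2 than in macrophages. The planned grouping by a protein table was not run as written, since no such table was used. Depth limits single genes under 10 CPM most, and the missing replicates limit every value. No paired analysis was possible because each population had 1 library.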
